A study of Arabidopsis thaliana with 12 samples.

Results

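Gene expression was compared between Arabidopsis thaliana seedlings grown on 3-bromo-7-nitroindazole (3B7N), an indazole that carries a bromo group and a nitro group, and seedlings grown on the solvent dimethyl sulfoxide (DMSO). The samples were chosen by the treatment code in their titles, and are 3 arrays of 3B7N and 3 arrays of DMSO, 6 of the 12 arrays of the series. All 6 hold total RNA of whole wild-type Col-0 seedlings, germinated on medium that held 2.5 µM 3B7N or DMSO, kept for 3 days in the dark and cold, and then given 4 days of continuous blue light at a fluence rate of 10 µmol m-2 s-1. The other 6 arrays, 3 of 3-bromoindazole (3BRO, without the nitro group) and 3 of 7-nitroindazole (7NIT, without the bromo group), both also at 2.5 µM on wild-type Col-0, were used to estimate the spread and for comparisons of 3B7N with each of them. The title of the series names hypocotyl elongation in blue light as its subject, and a cry1cry2 genotype named in its design text was not analysed here. Whether replicate arrays came from separately grown seedlings is not in the labels, and p-values therefore reflect the spread of these samples only, which may be technical.

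In blue light the cryptochromes restrain the hypocotyl and promote the greening of the cotyledons, and greening brings with it the enzymes of photosynthesis, of chlorophyll and of photorespiration, the pathway that recovers the carbon of the phosphoglycolate that Rubisco makes when it fixes oxygen. Copper is needed in chloroplasts for plastocyanin and for a copper/zinc superoxide dismutase, and Arabidopsis cells short of copper turn, through the factor SPL7, to an iron superoxide dismutase, to copper reductases and transporters, and to small RNAs that lower the messages of copper proteins. Seedlings short of sugar raise a set of dark-inducible genes and enzymes that break down branched-chain amino acids and lysine, many of which also rise in senescing leaves.

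Levels are given as log2 of the processed signal relative to the 75th percentile of the same array, so that a level of 0 equals that percentile, and a level of 1 probe is not set against that of another. A gene was called higher or lower when limma's p-value, adjusted by Benjamini-Hochberg over all genes tested, was under 0.05. The 75th percentile itself was 1772 to 2216 on the DMSO arrays and 3326 to 3749 on the 3B7N arrays, so that signals were brighter overall on the latter, and 77.1 to 84.5% of the probes were well above background on each of the 12 arrays. On the first principal component 3B7N replicate 1 lay at 91.1, apart from the other 3B7N arrays at 52.9 and 53.1, while the remaining 9 arrays lay between -36.7 and -7.2. On the second component DMSO replicate 3 lay apart at -62.6. No slide and no scan day held both groups: the DMSO arrays were on slide 1, and the 3B7N arrays on slides 2 and 3, which were scanned on the other day. Slide and scan day therefore cannot be told apart from the treatment within these 6 arrays, and a fit with slide as a block ties the groups together only through the 3BRO arrays, of which replicate 1 shared a slide with DMSO and replicates 2 and 3 shared a slide with 3B7N replicates 1 and 2. All 6 root markers and all 5 green shoot markers passed the filter on dim probes. So did 3 of 5 flower markers, all but AP1 and AG, and all 5 embryo and seed markers. Passing the filter therefore does not tell which organs were present. In whole seedlings, fewer cells of a type and less RNA per cell cannot be told apart.

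Of 23550 genes tested, 1324 were higher with 3B7N than with DMSO (5.62%) and 2359 were lower (10.0%). By at least 2-fold, 573 genes were higher (2.43%) and 1014 were lower (4.31%). The median size of a called difference was 0.90 log2 units among genes that rose and 0.92 among genes that fell, and differences of at least 4-fold were found for 141 and 149 genes. All 3 arrays of 3B7N lay above all 3 of DMSO for 15.4% of all genes tested, called or not, and below them for 19.3%. With quantile normalisation, the split turned to 1808 higher and 1901 lower genes, so the excess of lower genes depends on the scaling. Without 3B7N replicate 1, 1029 genes were higher and 1733 lower, and without DMSO replicate 3 the counts were 833 and 1709. With slide as a block, 146 genes were higher (0.620%) and 606 lower (2.57%). Of the genes called in the fit without the block, 108 that were higher and 300 that were lower kept the call, and 1312 and 2344 kept the sign.

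**Figure D1:**
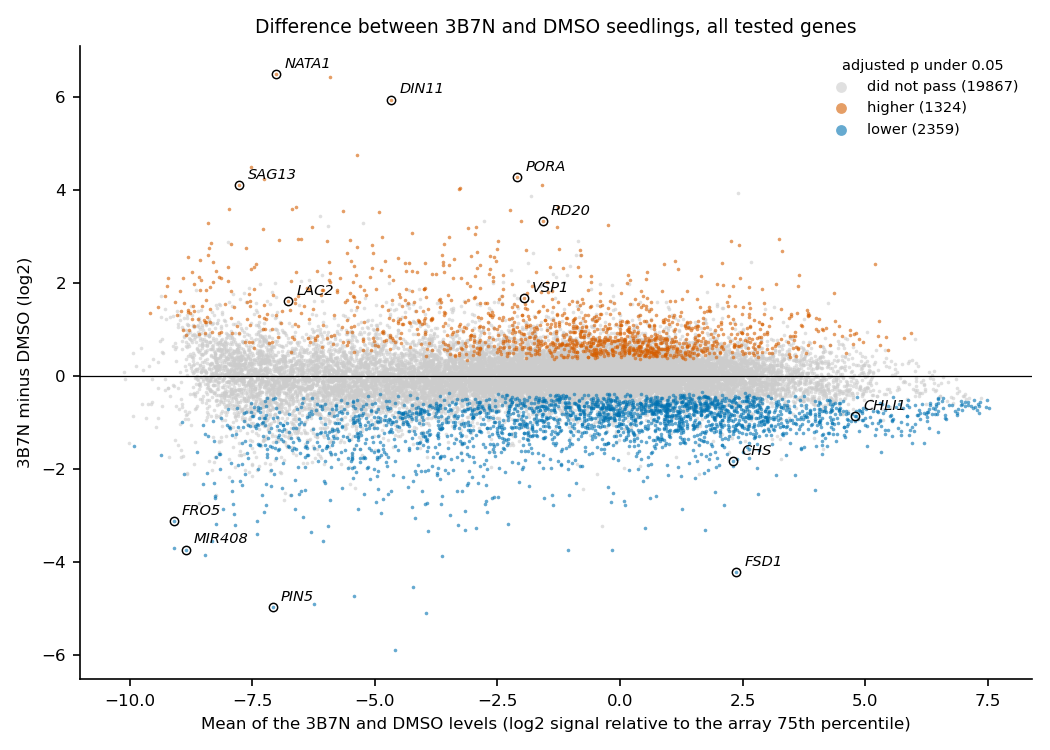
Each point is a gene, with its mean level over the 3B7N and DMSO arrays (log2 signal relative to the array's 75th percentile) on the horizontal axis and the difference 3B7N minus DMSO (log2) on the vertical axis. The 1324 genes called higher are orange, the 2359 called lower are blue, and circled genes are described in the text, among them NATA1 and DIN11 at the top and FSD1 and PIN5 at the bottom.

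NATA1, DIN11 and ENODL1 gave the largest rises among the genes named here. NATA1, an acetyltransferase of ornithine and related amines, lay at -10.48, -10.55 and -9.72 on the DMSO arrays and -5.16, -2.71 and -3.45 on the 3B7N arrays. No DMSO array was well above background for NATA1, while all 3 arrays of 3B7N were, and its fold is thus a bound: it was at least 19.4-fold higher with 3B7N (adjusted p = 0.000134). The bound sets the mean with 3B7N against the DMSO values raised to the lowest signal that was well above background on each array. It is not a confidence limit. DIN11, a dioxygenase gene named for its induction in the dark, lay at -7.23, -7.6 and -8.07 on the DMSO arrays and -1.78, -1.51 and -1.79 on the 3B7N arrays. The groups were far apart, with a difference of 5.94 (SE 0.33, adjusted p = 1.16e-05). Only 2 of the 3 DMSO arrays were well above background for DIN11. After normexp background correction its difference was 3.24 and still passed (adjusted p = 0.00664). ENODL1, which encodes an early nodulin-like protein, was above background on the 3B7N arrays alone of the 6 and was at least 40.9-fold higher with 3B7N (adjusted p = 1.16e-05). RTFL1, a member of the ROTUNDIFOLIA-like family of small peptides, rose by 3.2, IAA6, an Aux/IAA repressor of auxin response, by 4.01, and PME61, a pectin methylesterase gene, by 3.57. The adjusted p-values were 0.00306, 0.00223 and 0.0011. A dimmer second probe of PME61 differed by only -0.076, so the rise rests on 1 of its 2 probes. WSD1, a wax synthase, was well above background on no DMSO array and was at least 9.58-fold higher (adjusted p = 0.00103). Genes without a symbol in the annotation used here were also among the steepest rises: AT4G35720 by 4.09, AT4G17470 by 4.04, AT1G16850 by 3.62, AT1G26380 by 3.52, AT4G11190 by 3.32 and AT1G75900 by 3.2, with 0.00164 as the highest adjusted p-value. AT3G29060 was well above background on the 3B7N arrays and on no DMSO array, and was at least 7.45-fold higher (adjusted p = 0.00033). After normexp background correction the genes with bounds no longer passed and their differences lay below those bounds, with 1.78 for NATA1, 2.32 for ENODL1, 0.90 for WSD1 and 0.46 for AT3G29060 (adjusted p = 0.176, 0.0549, 0.438 and 0.671). AT1G26380 did not pass either, at 1.78 (adjusted p = 0.0751). With slide as a block IAA6 and RTFL1 differed by 2.15 and 2.16 and lost the call (adjusted p = 0.287 and 0.229), as did WSD1 and AT1G75900, while the other genes of this paragraph kept it.

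RD20 and LTI65, both known as genes induced by abscisic acid and drought, rose as well. RD20 lay at -3.44, -3.67 and -2.61 on the DMSO arrays and -1.16, 1.51 and -0.09 on the 3B7N arrays. LTI65 lay at -1.82, -2.32 and -1.44 on the DMSO arrays and 0.40, 2.37 and 1.39 on the 3B7N arrays. For both genes 3B7N replicate 2 was highest and every 3B7N array lay above every DMSO array, with differences of 3.33 (SE 0.61, adjusted p = 0.00506) and 3.24 (SE 0.47, adjusted p = 0.00157). Neither passed with slide as a block (adjusted p = 0.264 and 0.152).

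Among the steepest falls of genes well above background on all 6 arrays were 2 cytochrome P450 genes. CYP706A6 lay at -1.53, -1.4 and -1.33 on the DMSO arrays and -7.47, -5.75 and -6.31 on the 3B7N arrays. All 3 arrays of 3B7N were far below those of DMSO, lowest on replicate 1, a difference of -5.09 (SE 0.41, adjusted p = 0.000105). CYP71B36 fell by 3.35 on the log2 scale (adjusted p = 7.42e-05) and RK2, a receptor kinase gene, by 3.27 (adjusted p = 0.0013). Several loci without a symbol fell by comparable amounts. AT2G25510, with values of 2.51, 1.72 and 2.22 on the DMSO arrays and -1.25, -0.84 and -1.28 on the 3B7N arrays, showed groups that were tight and well separated. The differences were -3.27 for AT2G25510, -3.32 for AT2G15020, -3.31 for AT1G29720, -3.75 for AT2G27420, -4.54 for AT3G10185 and -3.76 for the transcribed pseudogene AT2G27395, with 0.00111 as the highest adjusted p-value. AT1G29724, AT4G22513 and the transcribed pseudogene AT4G00236 were not well above background on any 3B7N array, and were at least 3.06-, 4.96- and 6.05-fold lower (adjusted p = 0.000267, 0.0186 and 0.0259). The value of AT4G00236 rests on DMSO replicate 3, at -3.84 against -7.32 and -7.6 on the others, without which the fitted difference went from -3.2 to -2.0. AT4G00236 and AT4G22513 lost the call in 3 and 4 of the 6 fits that left out 1 array and with slide as a block. After normexp correction none of these 3 loci passed (adjusted p = 0.292, 0.254 and 0.284), and with slide as a block AT3G10185, AT1G29720 and RK2 did not pass.

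Beyond single genes, the response was described over lists of genes grouped by function. In the list figure the photorespiratory, flavonoid and copper genes lay lowest by their medians, and the sugar-starvation, jasmonate and senescence genes highest. The median over all genes tested was -0.013. Among all genes tested 5.62% were higher and 10.0% lower, and the share of each list is to be read against these. Of the 4710 genes of highest level 17.15% were lower. The lists, several of which hold bright genes, were not set against genes of similar level. Lists hold genes with a symbol in the annotation used here, and 13 listed loci without one, all tested, are kept out of their counts: 5 of these were lower and 0 higher in the limma fit. Of 167 genes with values here, 118 lost the call with the sign kept with slide as a block, and 10 with quantile normalisation. After normexp correction, with 166 of them measured, 49 did. LAC2 and AOX1D after normexp correction, and LHCB1.1 and TIP2;1 with quantile normalisation, lost the call and also changed sign.

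**Figure D2:**
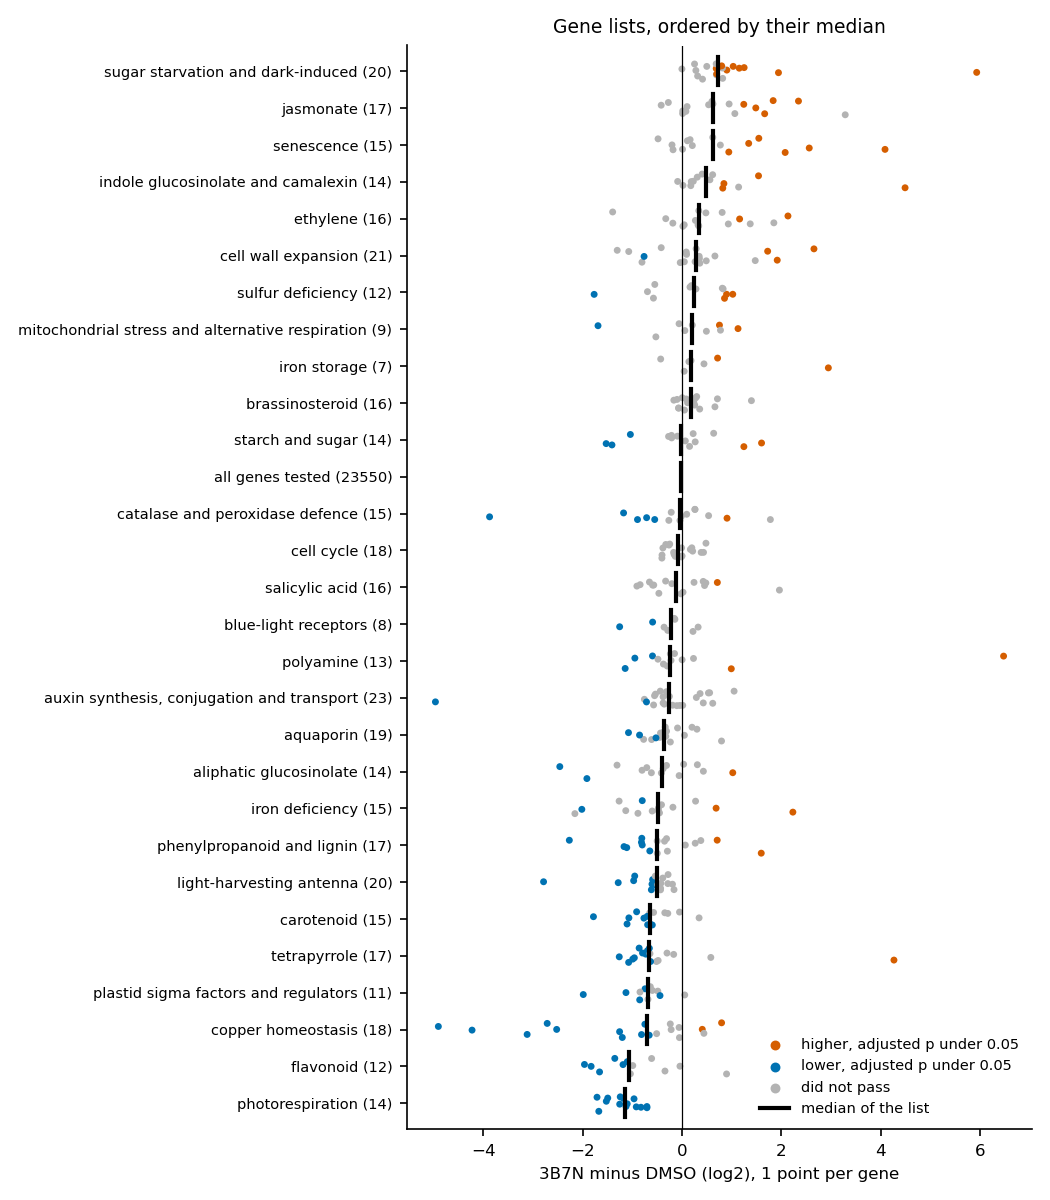
Each row is a list of genes, with the number tested in brackets, and each point is a gene placed at its difference 3B7N minus DMSO (log2). Orange and blue points passed the test as higher and lower, grey points did not, the black bar is the median of the list, and for all genes tested only the median is drawn. The 14 photorespiratory genes all lie below 0, and their median of -1.15 is the lowest.

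Many of the genes that seedlings use to take up and save copper were lower on 3B7N, in several cases by more than 4-fold, while the cytosolic copper/zinc superoxide dismutase and its chaperone were higher. Of 18 copper homeostasis genes tested, 10 were lower and 2 higher, against 10.0% and 5.62% of all genes, and their median was -0.70. FSD1, the iron superoxide dismutase of chloroplasts that stands in for the copper enzyme, lay at 4.47, 4.28 and 4.69 on the DMSO arrays and 0.33, 0.56 and -0.15 on the 3B7N arrays. The 6 arrays fell into separate groups with no overlap, and the difference was -4.23 (SE 0.20, adjusted p = 8.16e-06). FRO4 and FRO5, which encode the cell-surface reductases of copper, were lower too. FRO4 lay at -4.67, -3.52 and -3.14 on the DMSO arrays and -10.05, -8.47 and -7.54 on the 3B7N arrays, and was well above background on 2 of the 3 arrays of 3B7N. The arrays of 3B7N were spread over more than 2 log2 units but all lay below DMSO, with a difference of -4.91 (SE 0.68, adjusted p = 0.00123). FRO5 and the locus of MIR408, the precursor of a small RNA that lowers messages of copper proteins, were not well above background on any 3B7N array. FRO5 was at least 2.48-fold lower (adjusted p = 0.000516) and MIR408, well above background on 2 of the 3 DMSO arrays, at least 3.64-fold lower (adjusted p = 0.000678). After normexp background correction FRO4, FRO5 and MIR408 differed by -2.29, -0.93 and -1.14 and did not pass the test (adjusted p = 0.0518, 0.44 and 0.342). AT1G71200, a listed locus without a symbol, was lower too, differing by -3.12 (SE 0.51, adjusted p = 0.00311), with 1 of the 3 arrays of 3B7N well above background, and did not pass after normexp correction or with slide as a block.

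The transporters and chaperones of the copper list gave smaller differences from brighter probes. ZIP2, a metal transporter of the ZIP family, lay at 0.67, 1.3 and 1.52 on the DMSO arrays and -2.51, -1.22 and -0.91 on the 3B7N arrays. YSL2, a transporter of metals bound to nicotianamine, lay at 0.95, 1.1 and 1.28 on the DMSO arrays and -2.23, -0.91 and -1.09 on the 3B7N arrays. In both genes 3B7N replicate 1 was lowest, and the groups did not overlap, with differences of -2.72 (SE 0.45, adjusted p = 0.00302) and -2.52 (SE 0.30, adjusted p = 0.000674). The copper importers COPT2 and COPT6 fell by 1.2 and 0.82 on the log2 scale (adjusted p = 0.00113 and 0.00323), and the copper chaperone CCH by 1.26 (adjusted p = 0.00231). The plastocyanin genes PETE1 and PETE2, which encode the copper protein that carries electrons to photosystem I, were lower, differing by -0.75 (SE 0.20, adjusted p = 0.0266) and -0.66 (SE 0.14, adjusted p = 0.00911). With quantile normalisation PETE2 differed by -0.079 and did not pass (adjusted p = 0.615), and PETE1 lost the call after normexp correction (adjusted p = 0.0846) and in 3 of the 6 fits that left out 1 array. CSD1, the cytosolic copper/zinc superoxide dismutase, lay at 4.75, 4.54 and 4.15 on the DMSO arrays and 5.34, 5.32 and 5.18 on the 3B7N arrays. Every 3B7N array lay above every DMSO array, with a difference of 0.80 (SE 0.16, adjusted p = 0.00808). CCS, the chaperone that loads copper into these dismutases, rose by 0.41 (adjusted p = 0.0363), and lost the call when any of 5 of the 6 arrays was left out. The plastid enzyme CSD2 lay at 4.55, 4.31 and 4.54 on the DMSO arrays and 4.53, 4.5 and 4.19 on the 3B7N arrays, with overlapping groups. With slide as a block FSD1, FRO4, FRO5, ZIP2, CCH and COPT2 stayed lower, FSD1 by -3.6 (adjusted p = 0.0036), and the other called members of the list did not pass.

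The copper genes did not respond alike to the related compounds, all given at 2.5 µM. The comparisons with DMSO share the DMSO arrays, so values are set side by side and the compounds are then compared directly, with p-values adjusted over all genes in each of 2 comparisons, 3B7N with 3BRO and 3B7N with 7NIT. FSD1 differed from DMSO by -2.25 on 7NIT (adjusted p = 0.00549) and by -0.24 on 3BRO (adjusted p = 0.997). FSD1 was lower with 3B7N than with 3BRO, a difference of -4.0 (95% interval -4.43 to -3.56, adjusted p = 1.49e-05), and lower than with 7NIT, a difference of -1.98 (95% interval -2.41 to -1.55, adjusted p = 0.000301). ZIP2 and YSL2 were lower with 3B7N than with 3BRO, with differences of -2.4 and -2.1 (adjusted p = 0.0112 and 0.00388). Against 7NIT neither passed the test: ZIP2 differed by -0.13 (95% interval -1.12 to 0.85, adjusted p = 0.862) and YSL2 by -0.57 (95% interval -1.23 to 0.10, adjusted p = 0.21). FRO5 and MIR408 were well above background on no 7NIT array either, so that 3B7N and 7NIT could not be compared for them. The chaperone CCS and the plastid dismutase CSD2 were lower with 3B7N than with 7NIT, with differences of -0.65 (95% interval -0.91 to -0.40, adjusted p = 0.00395) and -0.91 (95% interval -1.22 to -0.61, adjusted p = 0.00186). Neither was lower on 3B7N than on DMSO by the test. CCS differed from DMSO by 1.06 on 7NIT (adjusted p = 0.0165) and by 0.41 on 3B7N. For CSD2 these values were 0.85 (adjusted p = 0.0855) and -0.059.

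**Figure D3:**
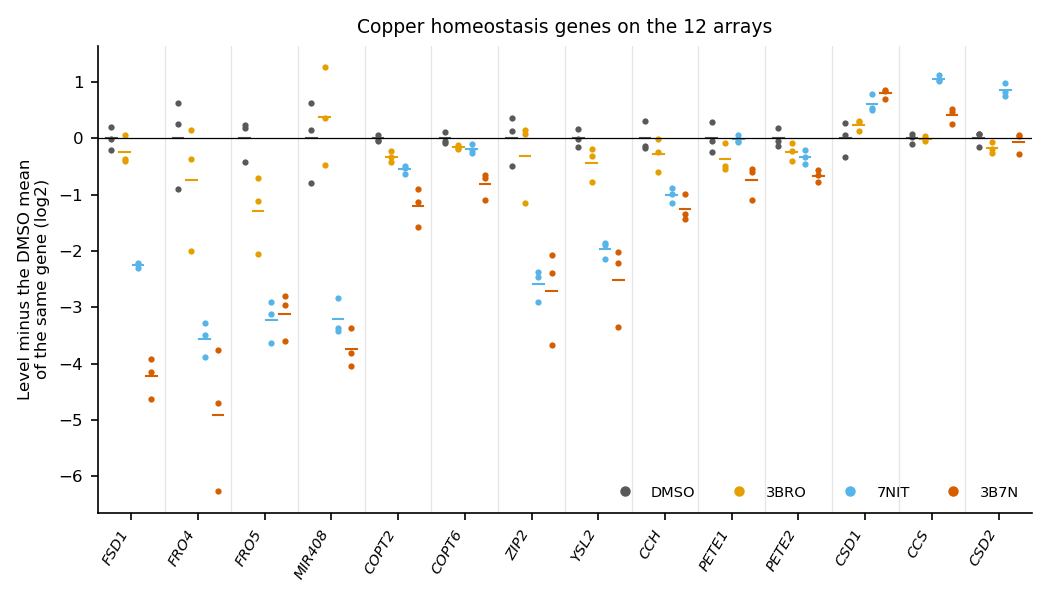
The level of 14 copper homeostasis genes on the 12 arrays minus the DMSO mean of the same gene (log2), with 3 points for the arrays of each treatment and a bar for their mean. FSD1 is lowest on 3B7N and intermediate on 7NIT, while ZIP2 is about equally low on both, and values of dim genes such as FRO5 and MIR408 are drawn although some were not well above background.

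Iron genes changed in both directions. Of 15 genes of the iron deficiency response tested, 2 were higher and 2 lower (13.3% each, against 5.62% and 10.0% of all genes), with a median of -0.47, and the reductase FRO2 and the regulator FRU did not pass. MYB10, a root MYB factor of the iron deficiency response, lay at -4.91, -5.12 and -5.75 on the DMSO arrays and -2.85, -3.15 and -3.07 on the 3B7N arrays. The groups were separate, with a difference of 2.23 (SE 0.24, adjusted p = 0.000403), and the call held with slide as a block but not after normexp correction, at 1.21 (adjusted p = 0.141). A dimmer second probe of MYB10 differed by 0.82. NAS4, a nicotianamine synthase, fell by 2.02 on the log2 scale (adjusted p = 0.00115) and OPT3, a phloem transporter of iron, by 0.80 (adjusted p = 0.0109), while ZIF1, a vacuolar transporter of nicotianamine, rose by 0.69 (adjusted p = 0.0153). IRT1, the iron importer of the root, lay at -7.95, -7.6 and -3.71 on the DMSO arrays and -9.51, -8.46 and -7.77 on the 3B7N arrays. DMSO replicate 3 stood well above the others and the groups overlapped, so that IRT1 did not pass (adjusted p = 0.157). Of 7 iron storage genes 2 were higher (28.6%, against 5.62% of all genes), the vacuolar iron transporter VIT1 and the ferritin gene FER1. VIT1 lay at -7.72, -7.86 and -8.55 on the DMSO arrays and -5.96, -4.62 and -4.7 on the 3B7N arrays, well above background on 2 of the 3 DMSO arrays. It was higher by 2.95 (SE 0.36, adjusted p = 0.000767), and FER1 by 0.72 (SE 0.18, adjusted p = 0.0206). After normexp correction VIT1 differed by 0.40 and did not pass (adjusted p = 0.683), and FER1 lost the call in 3 of the 6 fits that left out 1 array, ZIF1 in 1. Apart from MYB10, the called iron genes lost the call with slide as a block. Of 4 listed loci of the iron deficiency response without a symbol, 2 were lower. AT2G30766 lay at -1.1, -1.97 and -1.87 on the DMSO arrays and -7.97, -5.71 and -8.97 on the 3B7N arrays, with 2 of the 3 arrays of 3B7N well above background. The groups were more than 3 log2 units apart at their nearest, with a difference of -5.9 (SE 0.92, adjusted p = 0.00231) that passed after normexp correction (adjusted p = 0.00647) and not with slide as a block (adjusted p = 0.265). AT1G47400, well above background on all 3 DMSO arrays and no 3B7N array, was at least 4.96-fold lower (adjusted p = 0.0209). AT1G47400 lost the call after normexp correction, with slide as a block and in 4 of the 6 fits that left out 1 array. AT1G47395 and AT1G74770 differed by -1.68 and -0.061 and did not pass.

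Genes of sulfur supply gave a mixed picture, with 3 of 12 tested higher (25.0%) and 1 lower (8.33%), against 5.62% and 10.0% of all genes. APR1, an adenosine phosphosulfate reductase, the vacuolar sulfate exporter SULTR4;2 and LSU1, a gene induced by low sulfur, rose by 0.90, 1.02 and 0.86 (adjusted p = 0.0382, 0.0358 and 0.0475). The arrays of LSU1 overlapped, and none of these 3 calls held in every fit that left out 1 array, after normexp correction or with slide as a block. SULTR1;1, a root importer of sulfate, lay at -4.39, -4.41 and -4.46 on the DMSO arrays and -6.46, -6.23 and -5.88 on the 3B7N arrays, and was lower, differing by -1.77 (SE 0.41, adjusted p = 0.0152). SULTR1;1 kept the call with slide as a block and did not pass after normexp background correction.

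Transcripts of the photorespiratory cycle were lower on 3B7N. All 14 genes of the list with a symbol were called lower, against 10.0% of all genes, with a median of -1.15 and a range from -1.71 to -0.71. For each of these 14 the 3 arrays of 3B7N lay below the 3 of DMSO. The 2 listed loci without a symbol, AT1G11860 and AT1G80380, differed by -0.63 and -0.40, with overlapping groups, and did not pass (adjusted p = 0.283 and 0.122). The cycle begins in the plastid with PGLP1, the phosphoglycolate phosphatase, which lay at 3.03, 2.86 and 2.77 on the DMSO arrays and 1.32, 1.53 and 1.23 on the 3B7N arrays. The groups were well apart, with a difference of -1.52 (SE 0.14, adjusted p = 0.000166). LrgB (AT1G32080), the plastid carrier of glycolate and glycerate, was lower, differing by -1.25 (SE 0.16, adjusted p = 0.000844). In the peroxisome the glycolate oxidases GOX1 and GOX2 were lower, differing by -1.24 (SE 0.18, adjusted p = 0.00176) and -0.97 (SE 0.15, adjusted p = 0.00205), although a dimmer second probe of GOX2 differed by 0.20. Probes of these similar genes may bind both messages. The peroxisomal aminotransferases GGT1 and AGT1, which make glycine from glyoxylate, gave the smallest differences, -0.71 and -0.71 (adjusted p = 0.0129 and 0.007).

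The largest differences of the list, those of GLDP1 and GLDP2, lay in the mitochondrial steps, in which glycine is turned into serine. The other genes of these steps differed by less than PGLP1. GLDP1 and GLDP2, which encode the P protein of glycine decarboxylase, are near relatives whose probes may bind both messages. GLDP1 lay at 4.4, 4.08 and 4.26 on the DMSO arrays and 2.42, 2.95 and 2.23 on the 3B7N arrays. GLDP2 lay at 5.12, 4.93 and 4.79 on the DMSO arrays and 3.32, 3.44 and 3.06 on the 3B7N arrays. On every 3B7N array both genes were more than 1 log2 unit below each DMSO array, and the differences were -1.71 (SE 0.22, adjusted p = 0.000951) and -1.68 (SE 0.16, adjusted p = 0.000278). GDCH, the H protein of the same complex, was lower, differing by -1.5 (adjusted p = 0.000581), the serine hydroxymethyltransferase SHM1 by -1.18 (adjusted p = 0.000812), and BOU, a mitochondrial carrier needed for this step, by -1.1 (adjusted p = 0.00112). HPR1, the peroxisomal hydroxypyruvate reductase, lay at 6.17, 6.12 and 6.41 on the DMSO arrays and 5.07, 5.35 and 4.89 on the 3B7N arrays. Its groups were separate, with a difference of -1.13 (SE 0.15, adjusted p = 0.00095). GLU1 and GS2, the ferredoxin-dependent glutamate synthase and the plastid glutamine synthetase that take back the ammonia, were lower, differing by -0.92 (SE 0.18, adjusted p = 0.0072) and -0.83 (SE 0.14, adjusted p = 0.00382).

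All 14 calls held when each array was left out in turn. With quantile normalisation 11 of the 14 kept the call, all but GGT1, AGT1 and GS2, after normexp correction 13, all but GGT1, and with slide as a block 2, PGLP1 by -1.4 and GLDP2 by -1.2 (adjusted p = 0.0286 and 0.0476). Against 3BRO 13 of the 14 genes were lower with 3B7N, where 4.74% of all genes were lower and 2.73% higher. Against 7NIT all 14 were lower, where 12.5% of all genes were lower and 6.0% higher. The medians of the list were -0.87 and -1.04. Of 5 markers of green shoot 2 were lower, the Rubisco subunit gene RBCS1A and GLDP1 itself (40.0%, against 10.0% of all genes). Of these 2 calls 1 held with quantile normalisation, 1 after normexp correction and 0 with slide as a block. In every fit that left out 1 array 1 of them held. The summed level of the 4 measured on all arrays was 86.5 to 134 with DMSO and 64.8 to 79.3 with 3B7N, as multiples of the array's 75th percentile. The part of a change in green tissue in these results was not tested.

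**Figure D4:**
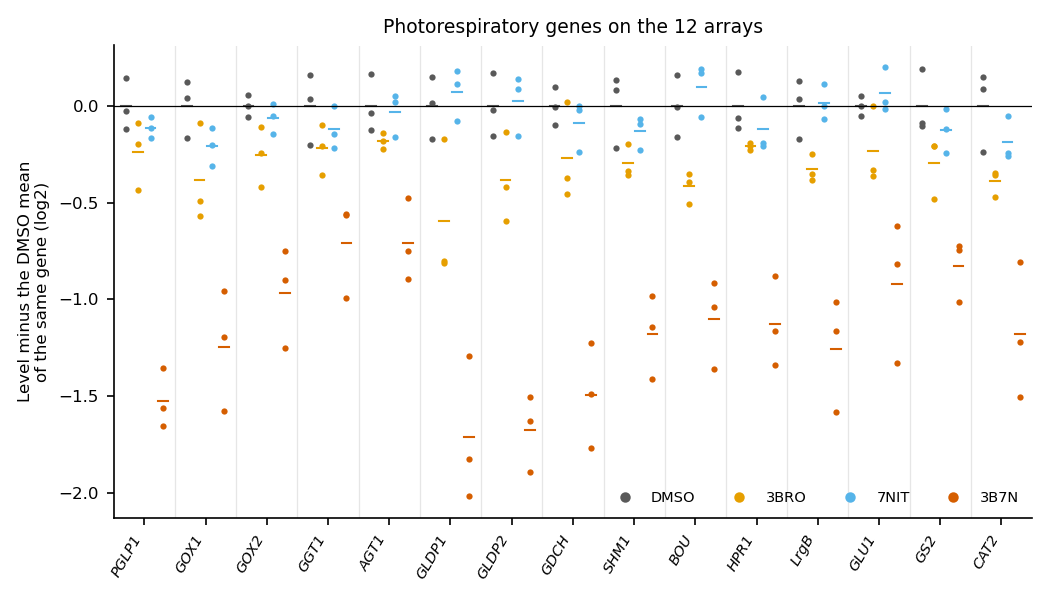
The level of the 14 photorespiratory genes and of CAT2 on the 12 arrays minus the DMSO mean of the same gene (log2), with 3 points for the arrays of each treatment and a bar for their mean. The 3B7N points lie below the DMSO points for every gene, from -1.71 for GLDP1 to -0.71 for GGT1 on average.

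Catalases, which remove the hydrogen peroxide made by glycolate oxidase, diverged. CAT2, the leaf catalase, lay at 6.14, 5.81 and 6.2 on the DMSO arrays and 4.83, 5.25 and 4.55 on the 3B7N arrays. CAT3, which is prominent in older tissue, lay at 5.36, 5.13 and 5.95 on the DMSO arrays and 6.32, 6.38 and 6.47 on the 3B7N arrays. CAT2 was lower in every 3B7N array and CAT3 higher in every 3B7N array, with differences of -1.18 (SE 0.18, adjusted p = 0.00205) and 0.91 (SE 0.19, adjusted p = 0.0102). Of 15 genes of catalases and related peroxidases tested, 5 were lower and 1 higher, against 10.0% and 5.62%. The lower ones were plastid enzymes besides CAT2: the glutathione peroxidases GPX7 and GPX1 and the ascorbate peroxidases TAPX of the thylakoid and SAPX of the stroma. GPX7 lay at -1.3, -2.12 and -1.64 on the DMSO arrays and -5.62, -5.09 and -5.97 on the 3B7N arrays. The difference of -3.88 (SE 0.28, adjusted p = 5.81e-05) was the largest of the list and held with slide as a block. GPX1, TAPX and SAPX were lower, differing by -0.71, -0.90 and -0.55 (adjusted p = 0.00387, 0.00199 and 0.00907). Apart from GPX7, the called genes of the list did not pass with slide as a block.

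Many chlorophyll and antenna genes were lower, and 1 chlorophyll gene was much higher. Of 17 tetrapyrrole genes tested, 10 were lower (58.8%, against 10.0% of all genes) and 1 was higher (5.88%, against 5.62%), with a median of -0.66. The exception was PORA, the protochlorophyllide oxidoreductase of dark-grown seedlings, whose message normally disappears in light. PORA lay at -3.33, -4.83 and -4.51 on the DMSO arrays and -0.26, 0.21 and 0.18 on the 3B7N arrays. Every 3B7N array was more than 3 log2 units above every DMSO array, and the mean difference was 4.27 (SE 0.37, adjusted p = 0.000146). PORC, the form of light-grown tissue, went the other way, from 3.1 and 2.94 on 2 DMSO arrays to 1.55, 2.33 and 1.95 on the 3B7N arrays, with a difference of -1.07 (SE 0.21, adjusted p = 0.00839). DMSO replicate 3 had no usable spot for PORC, which rests on 5 arrays. PORB, which serves in both states, lay at 3.12, 3.62 and 3.6 on the DMSO arrays and 3.84, 3.98 and 4.25 on the 3B7N arrays. Its groups did not overlap, but the difference of 0.58 did not pass (adjusted p = 0.137). PCB2, the divinyl reductase, was lower, differing by -1.26 (SE 0.14, adjusted p = 0.000427), and GSA2, an early enzyme of the pathway, with a difference of -0.96 (SE 0.14, adjusted p = 0.00196). Both held with slide as a block, as did PORA. The magnesium chelatase genes CHLI1 and CHLH were lower, differing by -0.86 and -0.73, and the ferrochelatase FC2 by -0.99 (adjusted p = 0.00348, 0.022 and 0.00693). CHLH lost the call with quantile normalisation (adjusted p = 0.152), after normexp correction (adjusted p = 0.0586) and in 2 of the 6 fits that left out 1 array, and PORC lost it without DMSO replicate 1. The listed locus AT1G74470, without a symbol, was lower too, differing by -0.62 (SE 0.16, adjusted p = 0.0248). AT1G74470 did not pass with quantile normalisation, at -0.15 (adjusted p = 0.347), after normexp correction or with slide as a block (adjusted p = 0.0711 and 0.25). Its call was also lost in at least 1 of the 6 fits that left out 1 array.

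Of 20 antenna genes, 9 were lower (45.0%, against 10.0% of all genes and 17.15% of the 4710 genes of highest level). Their median of -0.51 moved to 0.0042 with quantile normalisation, where 4 of the 9 kept the call, and 3 kept it in every fit that left out 1 array. The largest differences lay outside the abundant antenna. LHCB4.3, a minor antenna protein of photosystem II, lay at 3.67, 3.56 and 3.3 on the DMSO arrays and 0.51, 0.93 and 0.72 on the 3B7N arrays. The groups were more than 2 log2 units apart at their nearest, with a mean difference of -2.79 (SE 0.18, adjusted p = 3.39e-05), and LHCB4.3 was the only antenna gene to keep the call with slide as a block. LHCA6 and LHCA5, which link photosystem I to the NAD(P)H dehydrogenase complex, were lower, differing by -1.28 (SE 0.20, adjusted p = 0.00212) and -0.95 (SE 0.13, adjusted p = 0.00113), and LHCB7 by -0.97 (SE 0.27, adjusted p = 0.0336). The abundant LHCB1.1 and LHCB2.2, which have near-identical copies so that values of single genes are uncertain, were lower, differing by -0.56 and -0.62 (adjusted p = 0.0414 and 0.0298). With quantile normalisation LHCB1.1 changed sign and LHCB2.2 differed by -0.076 (adjusted p = 0.651), and neither passed after normexp correction, nor did LHCB7 (adjusted p = 0.106, 0.0995 and 0.0785).

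Some regulators of plastid transcription and many carotenoid enzymes were lower too. Of 11 regulators, 5 were lower (45.5%, against 10.0% of all genes), with a median of -0.69. CGA1, a GATA factor of chloroplast development, lay at -0.14, -0.38 and -0.70 on the DMSO arrays and -2.54, -2.13 and -2.51 on the 3B7N arrays. It was lower, differing by -1.99 (SE 0.20, adjusted p = 0.000313), and its relative GNC by -0.85 (SE 0.21, adjusted p = 0.0224). The sigma factors SIG2 and SIG5, which direct the plastid RNA polymerase and of which SIG5 responds to blue light, were lower, differing by -0.74 (SE 0.20, adjusted p = 0.0284) and -1.13 (SE 0.32, adjusted p = 0.0354), SIG5 least so on 3B7N replicate 2. GUN1, a plastid protein of signalling to the nucleus, was lower, differing by -0.44 (SE 0.10, adjusted p = 0.0162). Only CGA1 held in every fit that left out 1 array, none of the 5 held with slide as a block, and GNC, SIG5 and GUN1 did not pass after normexp correction (adjusted p = 0.052, 0.0609 and 0.0576). Of 15 carotenoid genes, 9 were lower, with a median of -0.65. The hydroxylases BCH1 and CYP97A3 were lower, differing by -1.11 (SE 0.19, adjusted p = 0.00337) and -1.07 (SE 0.19, adjusted p = 0.00464), the lycopene cyclase LYC by -0.91 and the phytoene desaturase PDS by -0.70 (adjusted p = 0.00547 and 0.00171). CCD4, a dioxygenase that cleaves carotenoids, lay at 2.35, 2.57 and 3.2 on the DMSO arrays and -0.05, 1.3 and 1.52 on the 3B7N arrays. All 3B7N arrays were below DMSO, replicate 1 by far, and the difference was -1.78 (SE 0.42, adjusted p = 0.0177). Of the 9 genes, 4 kept the call in every fit that left out 1 array and none with slide as a block. Among genes encoded in the plastid itself, 22 of 66 tested were lower (33.3%, against 10.0% of all genes), with a median of -0.65. Among genes encoded in mitochondria 3 of 59 were lower (5.08%, median -0.39). The share of lower genes also varied with signal level. It was 17.15% among the 4710 genes of highest level, and 7.0 to 9.0% in the groups of lower level. The plastid and mitochondrial counts were not set against genes of similar level. Whether these counts hold with quantile normalisation, after normexp correction, with slide as a block or without single arrays was not tested.

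Many genes of sugar starvation rose, and none fell. Of 20 sugar-starvation and dark-induced genes tested, 10 were higher, against 5.62% of all genes, with a median of 0.72. No member was called lower in the limma fit or at an unadjusted p under 0.05 (0 in each case). Enzymes of amino acid breakdown stood out beside DIN11. BCAT2, a branched-chain aminotransferase, lay at 0.93, 1.64 and 0.81 on the DMSO arrays and 3.77, 2.83 and 2.62 on the 3B7N arrays. LKR, the first enzyme of lysine breakdown, lay at 2.22, 2.33 and 1.5 on the DMSO arrays and 3.33, 3.38 and 3.09 on the 3B7N arrays. In both the groups were separate, with DMSO replicate 3 lowest, and the differences were 1.94 (SE 0.34, adjusted p = 0.00383) and 1.25 (SE 0.24, adjusted p = 0.00584). IVD, the isovaleryl-CoA dehydrogenase of leucine breakdown, rose by 1.15 (SE 0.23, adjusted p = 0.00764), and MCCA and MCCB, the subunits of the carboxylase that follows it, by 0.80 and 0.70 (adjusted p = 0.0307 and 0.0191). ETFQO, which passes electrons from these reactions to ubiquinone, and GDH1, a glutamate dehydrogenase, rose by 0.69 and 0.73 (adjusted p = 0.0286 and 0.0197). DIN1 and the glucosidase gene DIN2 rose by 0.90 (SE 0.24, adjusted p = 0.0282) and 1.03 (SE 0.19, adjusted p = 0.0058). Of the 10 calls, 7 held after normexp correction, all but DIN1, ETFQO and MCCA, 5 held in every fit that left out 1 array, and only that of DIN11 held with slide as a block. Against 7NIT 12 of the 20 members were higher with 3B7N, where 6.0% of all genes were higher. Against 3BRO 5 were, where 2.73% of all genes were.

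Starch genes moved both ways. Of 14 genes of starch and sugar handling, 3 were lower (21.4%) and 2 higher (14.3%), against 10.0% and 5.62% of all genes. BAM3, the plastid beta-amylase of starch breakdown at night, lay at 4.77, 4.4 and 4.37 on the DMSO arrays and 2.63, 3.38 and 2.95 on the 3B7N arrays. It was lower on every 3B7N array, with a difference of -1.53 (SE 0.23, adjusted p = 0.00186). BAM9, a plastid member of the family, and GBSS1, the granule-bound starch synthase, were lower, differing by -1.04 (SE 0.27, adjusted p = 0.0268) and -1.41 (SE 0.32, adjusted p = 0.0134). GPT2, a glucose-phosphate carrier of plastids induced by sugar, rose by 1.25 (SE 0.32, adjusted p = 0.0257). BAM9 and GPT2 lost the call after normexp correction (adjusted p = 0.0535 and 0.386) and in 3 and 4 of the 6 fits that left out 1 array, and none of the 5 calls held with slide as a block. BAM6, which is not in the list but was among the 12 steepest falls of genes well above background on all 6 arrays, was lower and did not pass with slide as a block, differing by -3.55 (SE 0.42, adjusted p = 0.000681).

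Regulators of the NAC family were among the senescence genes that rose. Of 15 senescence genes tested, 6 were higher (40.0%, against 5.62% of all genes), with a median of 0.62. The chlorophyll breakdown genes NYE1, NYC1, PPH and PAO did not pass. NAC019 lay at -3.79, -4.62 and -4.56 on the DMSO arrays and -1.85, -1.35 and -2.07 on the 3B7N arrays. All 3 arrays of 3B7N were above those of DMSO, with a difference of 2.56 (SE 0.35, adjusted p = 0.00114). NAC055, a close relative of NAC019, rose by 1.34 (SE 0.23, adjusted p = 0.00396). NAP and NAC6, both promoters of leaf senescence, rose by 2.08 (SE 0.54, adjusted p = 0.0258) and 1.55 (SE 0.38, adjusted p = 0.0214), NAC6 most on 3B7N replicate 1. RD26, another NAC factor of the stress response, rose by 0.94 (SE 0.28, adjusted p = 0.047). SAG13, a gene widely used as a senescence marker, was well above background on no DMSO array and was at least 5.03-fold higher (adjusted p = 0.0059). After normexp correction SAG13 differed by only 0.23, below that bound, and did not pass (adjusted p = 0.841), nor did RD26 (adjusted p = 0.109). None of the 6 kept the call with slide as a block, and 3 kept it in every fit that left out 1 array.

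**Figure D5:**
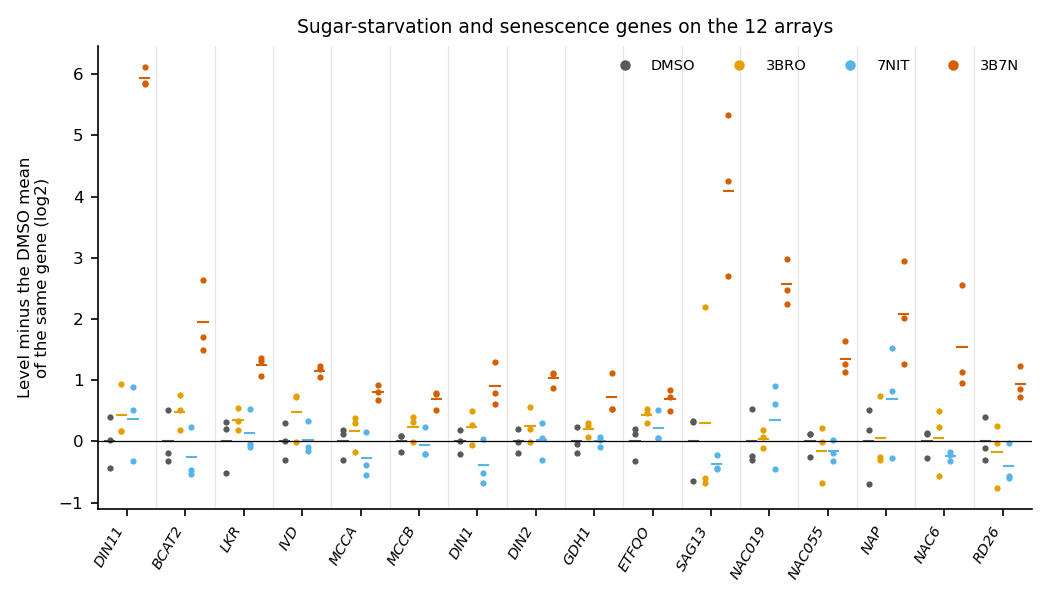
The level of 10 sugar-starvation genes (DIN11 to ETFQO) and 6 senescence genes (SAG13 to RD26) on the 12 arrays minus the DMSO mean of the same gene (log2), with 3 points for the arrays of each treatment and a bar for their mean. The 3B7N points lie above the DMSO points for all 16 genes, by 5.94 for DIN11 and 0.69 for ETFQO on average. SAG13 was well above background on no DMSO array, and DIN11 on 2 of the 3.

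Jasmonate genes rose in part. Of 17 tested, 5 were higher (29.4%, against 5.62% of all genes), with a median of 0.62 that became 1.34 without 3B7N replicate 1. VSP1 and VSP2, similar vegetative storage proteins that are classic jasmonate targets, were the only 2 of the 5 to keep the call with slide as a block. VSP1 lay at -2.77, -2.89 and -2.72 on the DMSO arrays and -0.82, -1.16 and -1.4 on the 3B7N arrays. VSP2 lay at -3.05, -3.12 and -2.69 on the DMSO arrays and -1.21, -1.48 and -1.72 on the 3B7N arrays. Each group was tight and the groups were separate, with differences of 1.67 (SE 0.17, adjusted p = 0.000334) and 1.49 (SE 0.17, adjusted p = 0.000605). JAZ10, a repressor of jasmonate response, OPR3, an enzyme of jasmonate synthesis, and CORI3, a cystine lyase induced by jasmonate, rose by 2.35 (SE 0.55, adjusted p = 0.0166), 1.25 (SE 0.30, adjusted p = 0.0198) and 1.84 (SE 0.41, adjusted p = 0.0141). After normexp correction CORI3 differed by only 0.22 and did not pass (adjusted p = 0.816). Leaving out 1 array, JAZ10 lost the call in 3, OPR3 in 4 and CORI3 in 1 of the 6 fits. TAT3, a tyrosine aminotransferase, lay at -4.29, -6.87 and -9.48 on the DMSO arrays and -1.93, -3.41 and -5.44 on the 3B7N arrays. Both groups were widely spread and overlapped, and TAT3 did not pass (adjusted p = 0.117). Of 16 salicylic acid genes 1 was higher, a share of 6.25% that is near the 5.62% of all genes. This was the transporter EDS5, with a difference of 0.71 (SE 0.21, adjusted p = 0.0419). Its call did not hold in the fits that left out 1 array except that without 3B7N replicate 3, after normexp correction or with slide as a block.

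Polyamine genes changed in both directions. Of 13 tested, 2 were higher (15.4%) and 3 lower (23.1%), against 5.62% and 10.0% of all genes. ADC2, the stress-induced arginine decarboxylase, lay at 4.21, 4.06 and 4.33 on the DMSO arrays and 5.1, 5.39 and 5.09 on the 3B7N arrays. ADC1, its relative, lay at 3.99, 3.48 and 3.64 on the DMSO arrays and 2.96, 2.75 and 2.55 on the 3B7N arrays. The groups were separate in both, in opposite directions, with differences of 0.99 (SE 0.13, adjusted p = 0.000918) and -0.95 (SE 0.22, adjusted p = 0.0152). Besides NATA1, only ADC2 of the list was higher, and both held with slide as a block, as did the fall of ARGAH2, an arginase, with a difference of -1.15 (SE 0.12, adjusted p = 0.00041). SPDS2, a spermidine synthase, was lower, differing by -0.59 (SE 0.14, adjusted p = 0.0165). SPDS2 and ADC1 did not pass with slide as a block, and lost the call in 3 and 1 of the 6 fits that left out 1 array.

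Several phenylpropanoid and flavonoid genes were lower. Of 17 phenylpropanoid and lignin genes, 7 were lower (41.2%) and 2 higher (11.8%), against 10.0% and 5.62% of all genes, with a median of -0.50. FAH1, the hydroxylase that leads to sinapate and syringyl lignin, lay at 1.29, 1.56 and 1.98 on the DMSO arrays and -0.80, -1.05 and -0.13 on the 3B7N arrays. The groups were more than 1 log2 unit apart, with a difference of -2.27 (SE 0.30, adjusted p = 0.00111) on average, and the call held with slide as a block. PAL2, C4H and CYP98A3, which catalyse early steps, and the alcohol dehydrogenase CAD4 were lower, differing by -1.11, -0.80, -0.81 and -1.17 (adjusted p = 0.00125, 0.00407, 0.00744 and 0.0025). CAD5, a relative of CAD4, rose by 0.71 (SE 0.16, adjusted p = 0.0126). The laccase LAC2 lay at -7.62, -7.73 and -7.34 on the DMSO arrays and -5.86, -6.08 and -5.96 on the 3B7N arrays. It was higher by 1.6 (SE 0.15, adjusted p = 0.000235), close to the background, and after normexp correction the difference was -0.002 (adjusted p = 0.999). Of the 9 called genes of the list, FAH1 and LAC2 kept the call with slide as a block. Of 12 flavonoid genes, 6 were lower (50.0%, against 10.0% of all genes), with a median of -1.07. CHS, chalcone synthase, lay at 3.42, 2.94 and 3.29 on the DMSO arrays and 0.97, 1.41 and 1.78 on the 3B7N arrays. It was lower on every 3B7N array and lowest on replicate 1, with a difference of -1.83 (SE 0.22, adjusted p = 0.000777). The same order of the 3B7N arrays held for FLS1, flavonol synthase, with a difference of -1.97 (SE 0.36, adjusted p = 0.00483). F3H and TT7, the hydroxylases, were lower, differing by -1.35 and -1.1, and MYB12 and MYB11, which activate flavonol genes, by -1.19 and -1.66 (adjusted p = 0.0083, 0.00212, 0.0123 and 0.0386). MYB11 lost the call with quantile normalisation, after normexp correction (adjusted p = 0.0669 and 0.37) and in 4 of the 6 fits that left out 1 array, and only CHS of the 6 kept it with slide as a block.

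Some genes of indole glucosinolates and camalexin were higher. Of 14 genes of indole glucosinolates and camalexin, 4 were higher (28.6%, against 5.62% of all genes), with a median of 0.48. CYP71A13, which makes a precursor of the phytoalexin camalexin, lay at -9.86, -9.92 and -9.56 on the DMSO arrays and -5.86, -5.13 and -4.87 on the 3B7N arrays. It was well above background on every 3B7N array and no DMSO array, and was at least 6.78-fold higher (adjusted p = 0.000431). PAD3, the last enzyme of camalexin synthesis, CYP81F2, which modifies indole glucosinolates, and the sulfotransferase SOT16 rose by 0.82 (SE 0.16, adjusted p = 0.006), 1.54 (SE 0.38, adjusted p = 0.0208) and 0.84 (SE 0.20, adjusted p = 0.016). After normexp correction CYP71A13 differed by only 0.34, below its bound, and neither it nor PAD3 nor SOT16 passed (adjusted p = 0.746, 0.211 and 0.0585). None of the 4 passed with slide as a block. Of 14 genes listed for aliphatic glucosinolates, 2 were lower (14.3%) and 1 higher (7.14%), shares near the 10.0% and 5.62% of all genes. FMO GS-OX1, which oxidises their side chains, was lower, differing by -2.46 (SE 0.48, adjusted p = 0.007), with 2 of the 3 arrays of 3B7N well above background. CYP83A1 was lower, differing by -1.92 (SE 0.55, adjusted p = 0.0392), with 1 of the 3 above background. Neither passed after normexp correction. CYP83A1 also lost the call with slide as a block and in 5 of the 6 fits that left out 1 array, and FMO GS-OX1 kept it in these fits. GGP1, a glutamyl peptidase, was higher by 1.02 (SE 0.30, adjusted p = 0.0413), and lost the call after normexp correction, with slide as a block and without any 1 of the DMSO arrays. The listed locus AT2G31790, without a symbol, was lower, differing by -1.69 (SE 0.26, adjusted p = 0.00212), and did not pass with slide as a block.

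Listed genes tied to growth gave few calls, in view of the subject of the series. CRY1 and CRY2, the cryptochromes that hold back the hypocotyl in blue light, did not pass. CRY1 lay at 3.47, 3.65 and 3.85 on the DMSO arrays and 3.65, 3.51 and 3.34 on the 3B7N arrays. CRY2 lay at 2.66, 2.72 and 2.81 on the DMSO arrays and 3.19, 2.85 and 2.81 on the 3B7N arrays. Both pairs of groups overlapped, and the intervals of the difference ran from -0.47 to 0.16 for CRY1 and from -0.08 to 0.52 for CRY2. CRY3, a cryptochrome of plastids and mitochondria, lay at 1.51, 1.39 and 1.48 on the DMSO arrays and -0.33, 0.50 and 0.44 on the 3B7N arrays. It was lower, differing by -1.26 (SE 0.20, adjusted p = 0.00237). ZTL, a blue-light-sensing F-box protein, was lower, differing by -0.59 (SE 0.18, adjusted p = 0.0481). CRY3 and ZTL were the only 2 of 8 blue-light receptors to pass (25.0% lower, against 10.0% of all genes). Neither passed with slide as a block, and ZTL lost the call with quantile normalisation, after normexp correction (adjusted p = 0.0544 and 0.171) and in 5 of the 6 fits that left out 1 array. Of 16 brassinosteroid genes 0 passed in the limma fit, and 0 without empirical Bayes, while 4 had an unadjusted p under 0.05, all higher. Of 18 cell cycle genes 0 passed in either fit, and 3 had an unadjusted p under 0.05, 1 of them higher.

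Few of the listed genes of auxin, ethylene, wall expansion and water transport passed the test. Families counted by the start of their symbols, after the values had been seen, held more calls. Of 23 IAA genes 7 were higher and 3 lower (30.4% and 13.0%, against 5.62% and 10.0% of all genes). Of 28 XTH genes, some of them listed, 4 were higher and 7 lower (14.3% and 25.0%). Of 23 genes of auxin synthesis, conjugation and transport, 2 were lower, the carriers PIN5 and PIN6 (8.70%, below the 10.0% of all genes). PIN5, which moves auxin into the endoplasmic reticulum, lay at -4.49, -4.42 and -4.89 on the DMSO arrays and -10.92, -10.07 and -7.72 on the 3B7N arrays. Only replicate 3 of the 3B7N arrays was well above background, and all 3 were far below DMSO, with a difference of -4.97 (SE 0.70, adjusted p = 0.00136). PIN5 held with slide as a block, and PIN6 differed by -0.72 (SE 0.19, adjusted p = 0.0278). PIN6 lost the call with slide as a block, with quantile normalisation, after normexp correction (adjusted p = 0.112 and 0.331) and in 4 of the 6 fits that left out 1 array. Of 16 ethylene genes 2 were higher (12.5%, against 5.62%), the receptor ERS2 by 1.16 (SE 0.24, adjusted p = 0.00973) and ARGOS, a gene of organ size, with a difference of 2.13 (SE 0.59, adjusted p = 0.0335). ARGOS was highest on 3B7N replicate 1, at 2.14 against -0.83 and 0.10 on the others, and without that array the difference was 1.3. ARGOS did not pass after normexp correction (adjusted p = 0.0713) or in 4 of the 6 fits that left out 1 array, and neither gene passed with slide as a block. Of 21 genes of wall expansion 3 were higher (14.3%) and 1 lower (4.76%), against 5.62% and 10.0% of all genes. XTH17, XTH18 and XTH19, similar xyloglucan hydrolase genes whose probes may bind more than 1 message, were the higher ones. XTH18 lay at 2.98, 2.65 and 2.4 on the DMSO arrays and 4.95, 4.54 and 4.3 on the 3B7N arrays. Every 3B7N array exceeded every DMSO array in all 3 genes, and the differences were 2.66 (SE 0.39, adjusted p = 0.00171), 1.92 (SE 0.36, adjusted p = 0.00545) and 1.73 (SE 0.26, adjusted p = 0.002). All 3 held in each fit that left out 1 array and did not pass with slide as a block, and XTH19 did not pass after normexp correction (adjusted p = 0.0773). XTH5 was lower, differing by -0.76 (SE 0.19, adjusted p = 0.0219), and lost the call with slide as a block and in 3 of the 6 fits that left out 1 array. Of 19 aquaporins 3 were lower (15.8%, against 10.0%), PIP2;8 of the plasma membrane by -0.86 (SE 0.17, adjusted p = 0.00861) and TIP4;1 and TIP2;1 of the vacuole by -1.08 and -0.52 (adjusted p = 0.0407 and 0.0436). TIP4;1 and TIP2;1 lost the call in every fit that left out 1 array, and TIP2;1 and the median of the list changed sign with quantile normalisation. Of 6 root markers 3 were lower, PYK10, COBL9 and SCR (50.0%, against 10.0% of all genes), while WOX5 and SHR did not pass. WOX5 differed by 0.65 and EXPA7 by -1.48. With quantile normalisation 1 of the 3 calls held, and with slide as a block only that of COBL9. None held after normexp correction, and none held in every fit that left out 1 array. The summed level of the 6 was 111 to 138 with DMSO and 79.2 to 90.0 with 3B7N. The part of a change in root tissue was not tested.

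Of 9 genes of mitochondrial stress and alternative respiration, 2 were higher (22.2%) and 1 lower (11.1%), against 5.62% and 10.0% of all genes. UGT74E2, a glucosyltransferase of indole-3-butyric acid induced by oxidative stress, lay at 1.34, 1.24 and 0.80 on the DMSO arrays and 2.07, 2.57 and 2.12 on the 3B7N arrays. It was higher by 1.13 (SE 0.18, adjusted p = 0.00241). AOX1D, an alternative oxidase, rose by 0.75 (SE 0.22, adjusted p = 0.0403), near the background, and after normexp correction its sign turned. A dimmer second probe of AOX1D differed by 3.3, so the size depends on the probe. Neither UGT74E2 nor AOX1D passed with slide as a block, and AOX1D lost the call in 4 of the 6 fits that left out 1 array. NDA1, an internal NAD(P)H dehydrogenase that light induces, lay at 3.25, 2.77 and 3.09 on the DMSO arrays and 1.45, 1.86 and 0.72 on the 3B7N arrays. It was lower on all 3 arrays, least on replicate 2, with a difference of -1.69 (SE 0.26, adjusted p = 0.00237), and held with slide as a block.

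Setting 3B7N against its relatives, 644 genes were higher (2.73%) and 1116 lower (4.74%) than with 3BRO. Against 7NIT, 1413 were higher (6.0%) and 2949 lower (12.5%). The counts of the lists that follow are to be read against these shares. For the tetrapyrrole list the medians were -0.44 against 3BRO and -0.70 against 7NIT, with 5 and 12 of 17 genes lower. PORA was higher with 3B7N than with 3BRO by 4.12 (95% interval 3.31 to 4.93, adjusted p = 0.000348) and than with 7NIT by 4.18 (95% interval 3.37 to 5.0, adjusted p = 0.000182). For the carotenoid list 4 of 15 genes were lower than with 3BRO and 13 than with 7NIT, and for the senescence list 6 and 5 of 15 were higher. DIN11 exceeded its level on 3BRO by 5.51 (95% interval 4.79 to 6.23, adjusted p = 3.36e-05) and that on 7NIT by 5.57 (95% interval 4.85 to 6.29, adjusted p = 3.01e-05). NATA1 was well above background on no array of 3BRO or 7NIT and on all 3 of 3B7N (adjusted p = 0.000245 and 0.000173). For CRY1 the difference was -0.048 (95% interval -0.37 to 0.27, adjusted p = 0.882) against 3BRO and -0.057 (95% interval -0.38 to 0.26, adjusted p = 0.814) against 7NIT.

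The comparison was also set beside the authors' deposited table for 3B7N against DMSO, which gives folds without a direction. The authors' deposited table lists 1779 probes with folds from 2 to 34.09 and corrected p-values up to 0.04995. All 1779 are in the limma fit by probe, where 460 had a higher and 1319 a lower mean with 3B7N, and 450 and 1290 passed the test. Of 2336 probes called at 2-fold in the fit, 1736 are in the authors' deposited table. The highest fold listed there, 34.09, is that of CYP706A6. NATA1, DIN11 and ENODL1, the largest rises named here, are not listed. Nor are CYP71A13, SAG13, FRO4, FRO5, MIR408 and PIN5. The reason was not tested. The median size of the difference over the listed probes was 1.32 log2 units both in the authors' deposited table and in the fit.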

How the data were processed

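The authors deposited single-colour scanner output, for which the submitters' processing notes name Agilent Feature Extraction 10.7.3.1. The processed signal is a linear intensity, background-corrected per the file headers. The authors' deposited table gives linear folds (ratios of 2 or more) and corrected p-values, with the correction not given in the sources used here. The signals of 3BRO replicate 2 are rounded to 3 significant digits, unlike the others. Control and outlier spots were dropped, and log2 signals were set relative to the 75th percentile of their array. Probes were kept if well above background on every array of some treatment (35746 of 43603), 32118 of them with a locus, and the brightest stood for its locus (23556 loci, 23550 tested here). Symbols are those of RefSeq for TAIR10.1, an assembly other than the array's build, so no coordinates are given, and 13 loci without a symbol there were left out of the counts of the lists, with values given apart. All 12 arrays entered 1 fit in limma 3.58.1 (R 4.3.3, package data.table, version 1.17.8), with lmFit and eBayes, and p-values adjusted over all genes tested. On simulated data of 23556 genes, 42 of 100 genes changed by 1 log2 unit and 82 of 100 changed by 2 were recovered, with 4 false calls. The simulation had far fewer changed genes than were called here, and no effect of slide or scan day. Its rates therefore need not hold for these data. Intervals are limma's 95% intervals, and the number of arrays limits the precision. The normexp alternative used the median foreground signal, because the mean signal was not among the columns used. Named genes were the 12 highest and 12 lowest called genes with separate groups among those well above background on all 6 arrays, the 6 highest called genes above background on no DMSO array, the 6 lowest above background on no 3B7N array, and members of the lists. The samples, lists and genes were chosen with earlier results of these data known. Replicate numbers did not pair the arrays: deviations of equally numbered 3B7N and DMSO arrays correlated across genes at -0.097, 0.0072 and 0.13.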

Additional observations from a re-analysis of the deposited data

How the results depend on the processing

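The counts of genes called depended on the processing more than their direction did. In the order higher and lower with 3B7N than with DMSO, counts were 487 and 1213 after normexp background correction (248 and 598 at 2-fold), 566 and 1304 in a fit of the 6 arrays alone, 146 and 606 with slide as a block (144 and 603 at 2-fold), and 126 and 485 with scan day as a block (124 and 479 at 2-fold). Against the main split of 1324 and 2359 genes, quantile normalisation gave 1808 and 1901. Leaving out 1 array at a time gave 737 to 1084 higher and 1374 to 2104 lower genes (456 to 587 and 771 to 1109 at 2-fold), and fewer than 1324 by over 1.5 times without DMSO replicate 1 (737), 2 (820) or 3 (833), and fewer lower genes by that much without DMSO replicate 1. These fits have fewer arrays. With slide as a block, 373 genes were higher with 3B7N than with 3BRO, and 667 higher and 1291 lower than with 7NIT. The cause of these shifts was not tested. The replicate block, although the numbers do not pair the arrays, gave 1652 higher and 2647 lower genes against DMSO (636 and 1048 at 2-fold), 763 and 1191 against 3BRO, and 1680 and 3351 against 7NIT. Of 167 genes with values in the text, 4 lost their call with the replicate block.

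Few signs turned. With quantile normalisation, CSD2 stood at 0.18, LHCB1.1 at 0.040 and TIP2;1 at 0.042, and the medians of the antenna (0.0042), starch and sugar (0.029), salicylic acid (0.0070) and aquaporin (0.061) lists turned positive. After normexp correction LAC2 stood at -0.0020, AOX1D at -0.027 and the median of the mitochondrial stress list at -0.027. With slide as a block CSD2 stood at 0.033, the brassinosteroid median at -0.21 and the wall expansion median at -0.14, and with scan day as a block these medians were -0.19 and -0.18. Leaving out single arrays, CSD2 ranged from -0.14 to 0.049, and the medians of the starch and sugar list from -0.13 to 0.16, the salicylic acid list from -0.17 to 0.087, the cell cycle list from -0.21 to 0.040 and the catalase and peroxidase list from -0.11 to 0.044. The causes were not tested. Genes near background have bounds in place of folds, and 3 arrays a group limit all other values.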

Other observations

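Families named by the start of their symbols were counted after the values had been seen, against 5.62% higher and 10.0% lower among all genes. Of 26 GSTU genes, which encode glutathione transferases of the tau class, 8 were higher and 4 lower, from -1.60 for GSTU23 to 3.06 for GSTU12. Of 11 GSTF genes, of the phi class, 4 were higher and 3 lower, with GSTF6 at 1.38 and GSTF5 at -1.76. Of 53 UGT genes, which encode glycosyltransferases, 12 were higher and 8 lower, led by UGT76E1 at 2.46. Of 55 CYP71 genes 14 were lower and 3 higher. Of 44 genes with symbols that start with RPL or RPS, 12 were lower and the median was -0.43. Of 39 ABCG transporter genes 4 were higher, led by ABCG40 at 2.25.

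The longest run of genes that were called in the same direction and are neighbours among those tested held 5 higher genes: GSTU4, GSTU3, GSTU2, GSTU1 and AT2G29500, with differences from 0.95 to 2.59. The GSTU copies are similar, and probes may bind more than 1 of their messages. In another run, CAB3, LHCB1.1 and LHCB1.3, near-identical antenna genes, were lower by values that lay between -0.57 and -0.53.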
